A study of Mus musculus with 17 samples.

Results

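The genes described here are the nuclear genes whose symbols start with Nduf, most of which encode subunits or assembly factors of respiratory complex I, in the diaphragm of mice. Members were taken by symbol alone, without symbols that hold a hyphen, which gave 45 of the 47643 genes of the expression table. The diaphragm, the main muscle of breathing, was sampled in 17 male C57BL/6J mice, 4 months of age, in 4 groups. Control mice (n = 5) carried no tumor and received mock injections into the peritoneal cavity, and Control + rFibcd1 mice (n = 5) received rFibcd1, a recombinant C-terminal fragment of mouse Fibcd1, a protein secreted by muscle. LLC mice (n = 3) carried Lewis lung carcinoma tumors under the skin of the flanks and received mock injections, and LLC + rFibcd1 mice (n = 4) carried the same tumors and received rFibcd1. The tumor cells come from a single established mouse line, and the injections fell in the last week of tumor growth. RNA came from the muscle portion of the diaphragm after removal of tendons, and was sequenced in bulk.

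Complex I, or NADH dehydrogenase, takes electrons from NADH in the mitochondrial matrix, passes them along a chain of iron-sulfur clusters to ubiquinone, and uses the energy to pump protons across the inner membrane. It is L-shaped, with a matrix arm that holds the electron path and a membrane arm that pumps. The core subunits are conserved from bacteria. Those of the matrix arm are encoded in the nucleus and those of the membrane arm by mitochondrial DNA, and a shell of accessory subunits surrounds both arms. Assembly factors build the enzyme and do not remain in it. Muscle fibers, and those of the constantly active diaphragm in particular, are rich in mitochondria. The 45 genes comprised 7 core subunits, 9 accessory subunits of the matrix arm, 9 of the proximal and 10 of the distal membrane arm, the acyl carrier protein Ndufab1, which sits in both arms, and 7 assembly factors. The last 2, Ndufa4 and Ndufa4l2, carry the family name but are not complex I subunits: Ndufa4 belongs to complex IV, and Ndufa4l2 is its paralog, known as a gene induced by hypoxia. All 45 genes are protein coding. They lie on 16 chromosomes, with 2 genes on the X chromosome.

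Promoter sequences are shown because the family is known for shared regulation by nuclear respiratory factors and estrogen-related receptors. RefSeq promoters (build GRCm38.p6, 250 bases before to 50 after the start) were found for 39 of the 45 genes and searched on both strands for CGCATGCG, the core of the NRF1 site, AAGGTCA, the element bound by estrogen-related receptors, and CCGGAAG, a site of ETS factors such as Gabpa. These letters cover different sequences and do not overlap each other in the windows printed. CGCATGCG was found in 4 of the 39 genes (10.3%) and in 1.87% of all 32851 promoters. AAGGTCA was found in 3 genes (7.69%) against 4.72% of all promoters, and CCGGAAG in 5 genes (12.8%) against 8.86%. A gene was counted if any of its promoters matched, whereas the share over all is of single promoters, so the shares differ in unit. A match describes the letters of the window and no binding was measured. Ndufaf1, Ndufb6, Ndufb7 and Ndufs5 hold a match before the start but are not printed. The 250 bases before the start of 6 other genes that hold a match there follow, 5′ to 3′ on the strand of the gene, with the matched letters in capitals.
Ndufa8 (chr2:36049339-36049588, - strand): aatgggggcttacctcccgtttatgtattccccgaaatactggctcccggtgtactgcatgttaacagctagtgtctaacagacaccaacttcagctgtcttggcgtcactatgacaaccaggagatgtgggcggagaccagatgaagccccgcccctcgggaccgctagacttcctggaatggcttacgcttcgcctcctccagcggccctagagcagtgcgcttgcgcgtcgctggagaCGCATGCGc
Ndufa11 (chr17:56717512-56717761, + strand): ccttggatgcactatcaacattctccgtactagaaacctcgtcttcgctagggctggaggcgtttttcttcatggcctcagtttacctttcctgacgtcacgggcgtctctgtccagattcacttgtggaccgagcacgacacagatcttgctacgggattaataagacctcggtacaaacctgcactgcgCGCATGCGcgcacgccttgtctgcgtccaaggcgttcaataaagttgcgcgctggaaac
Ndufaf4 (chr4:24897833-24898082, + strand): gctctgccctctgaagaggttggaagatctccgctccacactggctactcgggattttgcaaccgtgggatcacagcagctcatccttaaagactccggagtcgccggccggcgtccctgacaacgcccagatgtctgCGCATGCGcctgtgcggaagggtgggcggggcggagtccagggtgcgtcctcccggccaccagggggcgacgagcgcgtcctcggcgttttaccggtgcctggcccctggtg
Ndufb2 (chr6:39592315-39592564, + strand): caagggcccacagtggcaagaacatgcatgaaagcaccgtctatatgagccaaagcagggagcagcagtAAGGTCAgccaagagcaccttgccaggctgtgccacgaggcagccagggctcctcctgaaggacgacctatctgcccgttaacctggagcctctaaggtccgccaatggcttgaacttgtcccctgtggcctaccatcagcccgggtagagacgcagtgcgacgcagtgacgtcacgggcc
Ndufb4 (chr16:37654369-37654618, - strand): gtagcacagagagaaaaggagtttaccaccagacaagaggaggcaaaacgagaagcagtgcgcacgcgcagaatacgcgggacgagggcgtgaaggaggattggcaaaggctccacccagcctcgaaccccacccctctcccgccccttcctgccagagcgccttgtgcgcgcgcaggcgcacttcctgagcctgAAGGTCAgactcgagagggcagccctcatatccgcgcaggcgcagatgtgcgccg
Ndufs3 (chr2:90904722-90904971, - strand): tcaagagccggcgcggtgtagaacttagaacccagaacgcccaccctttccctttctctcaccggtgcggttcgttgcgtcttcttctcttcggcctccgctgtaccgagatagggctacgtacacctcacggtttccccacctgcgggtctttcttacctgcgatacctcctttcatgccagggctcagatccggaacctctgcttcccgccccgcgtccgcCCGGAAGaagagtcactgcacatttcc
The first 3 hold CGCATGCG, Ndufb2 and Ndufb4 hold AAGGTCA, and Ndufs3 holds CCGGAAG. In Ndufa8 the match ends 1 base before the start, in Ndufa11 51 bases and in Ndufaf4 104 bases before it. Starts here are those of the RefSeq promoters. In the GENCODE annotation Ndufa8, Ndufb4 and Ndufs3 begin further upstream, so their matches lie inside those genes. The median change from Control to LLC was -0.185 (log2) in the genes with CGCATGCG and -0.178 in the others with a promoter, -0.219 and -0.178 with and without AAGGTCA, and -0.178 and -0.179 with and without CCGGAAG.

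Expression was given as TPM, a level per length of the gene in which each library sums to 1000000. The depth derived from the steps of low values was 50.7 to 54.6 per mouse in units of 1000000 reads, as an estimate, and the least covered gene, Ndufa4l2, had at least 426 estimated reads in every mouse. Mitochondrially encoded genes held 41.3% to 50.4% of TPM. Their share was 45.9% to 48.4% in Control and 45.4% to 50.4% in Control + rFibcd1. It was 41.3% to 44.3% in LLC, below every Control mouse, and 43.7% to 46.5% in LLC + rFibcd1. All 45 genes had at least 1 TPM in every mouse and all were tested. Markers of myofibers (23 genes, none at 0) summed to 97734 to 104780 TPM in Control, 95384 to 107220 in Control + rFibcd1, 83044 to 87879 in LLC and 85289 to 97511 in LLC + rFibcd1, as in muscle tissue. The 9 B cell markers summed to 2.76 to 108 TPM in Control, 4.06 to 153 in Control + rFibcd1, 246 to 312 in LLC and 20.1 to 308 in LLC + rFibcd1. In bulk tissue, fewer cells of a type and less RNA per cell cannot be told apart.

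In Control, complex I transcripts were abundant and varied little between mice. Their Control means ranged from 16.5 TPM for Ndufaf7, a methyltransferase needed for assembly, to 1271 TPM for Ndufb9, a subunit at the tip of the membrane arm. Core subunits had a median of 362 TPM, and the lowest was Ndufs1 at 264 TPM. The median was 326 TPM for accessory subunits of the matrix arm, 323 TPM for the proximal and 333 TPM for the distal membrane arm, against 23.3 TPM for assembly factors. Every assembly factor lay below every core subunit, the highest being Ndufaf1 at 64.9 ± 4.23 TPM (SD, n = 5). The coefficient of variation over the 5 Control mice had a median of 3.65% over the 45 genes, from 1.35% (Ndufb3) to 11.1% (Ndufaf4). Over the 3847 genes tested with a Control mean at or above that of Ndufaf7, it was 6.26%. The 36 genes of complex I subunits summed to 13136 to 13921 TPM in Control, and the 7 mitochondrially encoded subunits (mt-Nd1 to mt-Nd6 and mt-Nd4l) to 126100 to 138810 TPM.

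The order of single genes depended on the length used. TPM divides by the length of all annotated exons, which exceeded that of the principal transcript by a median of 1.46 times and by more than 2 times in 12 genes. Over principal transcript lengths, Ndufa6 would rank first in place of Ndufb9, and Ndufb7, with a length ratio of 7.26, would move from rank 35 to rank 15. The 2 orders had a Spearman correlation of 0.79 across the 45 genes, given as a description. Whether other lengths would alter the comparisons between groups was not tested.

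The first comparison asked how the tumor changed these transcripts in mock-injected mice. From Control to LLC, 34 of the 45 genes fell and none rose at an adjusted p under 0.05 (limma, Benjamini-Hochberg over all 13305 genes tested), where 6.02% of all genes tested were called lower and 29.7% higher. The changes were small, from -0.36 to 0.061 on the log2(TPM + 1) scale. Their median was -0.18, against 0.16 over all genes tested. All 6 core subunits described below fell, as did 7 of 9 accessory subunits of the matrix arm, 7 of 9 of the proximal and 9 of 10 of the distal membrane arm, 3 of 7 assembly factors, and Ndufa4. The 3 LLC mice lay below all 5 Control mice in 33 genes, where 6.67% of all genes tested did so. An unadjusted p under 0.05 was reached by 39 genes, all lower, where 8.18% of all genes tested were lower at that level. The summed level of the 36 complex I subunit genes was 11088 to 12277 TPM in LLC, below the Control range given above.

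The count of calls changed with 1 mouse and with the scale. Under 3 other scalings it was higher: 43 genes were lower with median-ratio scaling (median -0.36), 44 with quantile normalization (median -0.28) and 40 without mitochondrially encoded genes (median -0.29). Of all genes tested, 14%, 23.9% and 11% were lower under these scalings, which also shifted the median of all genes to 0.0055, -0.10 and 0.075. LLC replicate 3 had the lowest value of all 17 mice in 37 of the 45 genes, and without it 1 gene (Ndufaf6) was called lower, where 0.0676% of all genes tested were, and 28 were lower at an unadjusted p under 0.05 (5.95% of all), with a median change of -0.14. When libraries were instead scaled on the 23 myofiber markers, the direction reversed: 38 of 45 changes were positive, with a median of 0.059, none was called lower and 3 were called higher (Ndufa4l2, Ndufa7 and Ndufv3), where 61.8% of all genes tested were higher. The median over all genes tested was 0.36 on that scale, and the difference of the members' median from it was -0.31, against -0.34 in the deposited scale. In the deposited scale the complex I transcripts thus fell as a share of all RNA, but not relative to those myofiber markers. Of the markers, 14 of 23 fell and 9 were not called (median -0.27). Without LLC replicate 3, 0 of these markers were called by limma and 16 had an unadjusted p under 0.05 (median -0.24). With quantile normalization the order of the medians turned, with -0.23 for the markers and -0.28 for the 45 genes.

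**Figure D1:**
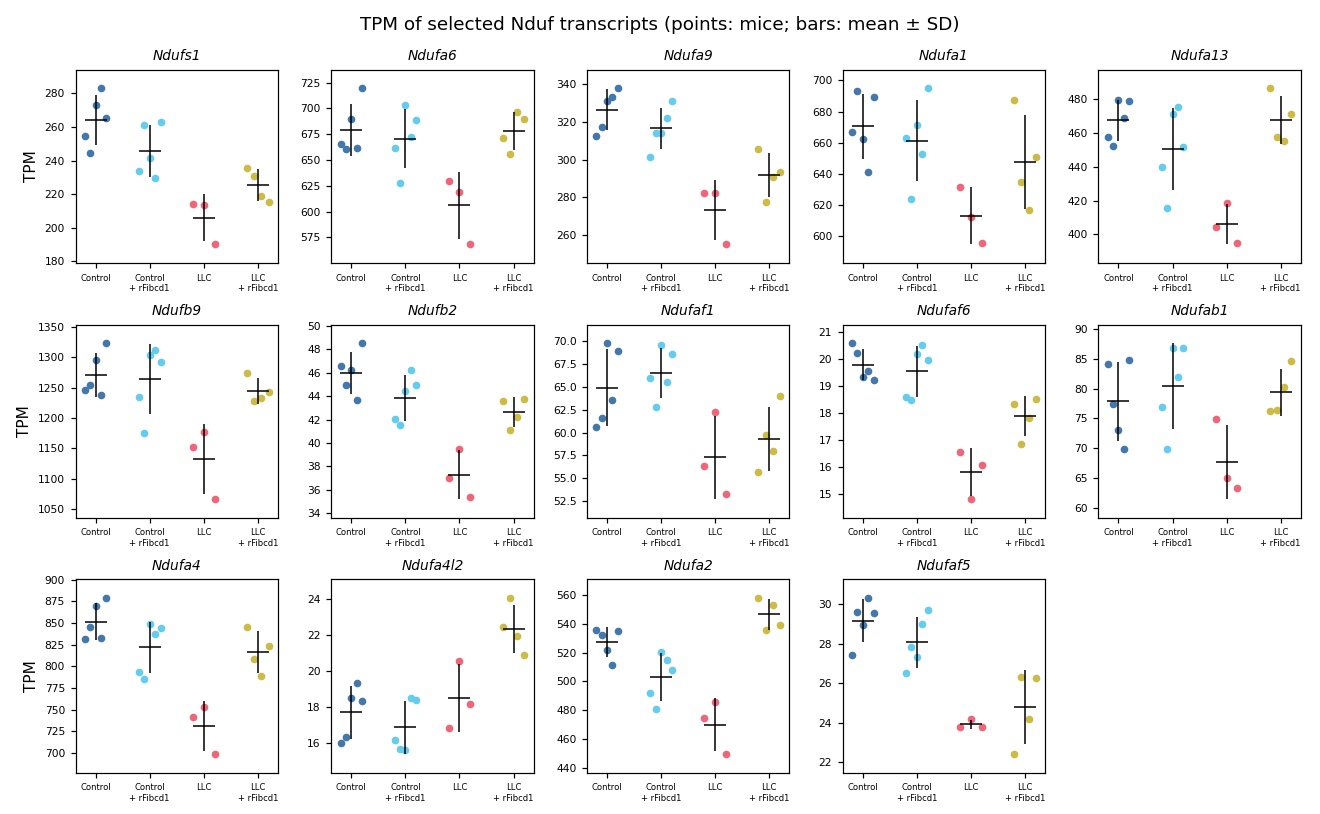
TPM (vertical axis, own scale in each panel and not starting at 0) of 14 Nduf transcripts in the 4 groups on the horizontal axis. Points are mice, bars the mean ± SD. In 11 panels the 3 LLC mice lie below all Control mice; Ndufaf1, Ndufab1 and Ndufa4l2 overlap.

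The core subunit Ndufs1, the largest subunit of the NADH-oxidizing module with several iron-sulfur clusters, fell most among all 45 genes (chromosome 1, 63143596 to 63176833). It was at 255, 245, 273, 283 and 265 TPM in Control, 234, 261, 241, 229.9 and 263 TPM in Control + rFibcd1, 214, 214 and 190.3 TPM in LLC and 236, 231, 219 and 216 TPM in LLC + rFibcd1. All 7 tumor-bearing mice lay below all 5 Control mice, and LLC + rFibcd1 lay above LLC without overlap. The change to LLC was -0.36 ± 0.06 (log2, SE; limma adjusted p = 0.00734), or 21.9% lower, and was 0.18 below the median change of the 45 genes.

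The other core subunits described here moved by nearly the same amount. Ndufv1, which binds NADH and the flavin, fell by 0.23 ± 0.054 (adjusted p = 0.0113), and its partner Ndufv2 by 0.22 ± 0.046. Ndufs3, which carries no cluster, fell by 0.24 ± 0.042. Ndufs7 and Ndufs8, which hold the clusters next to ubiquinone, fell by 0.24 ± 0.047 and 0.22 ± 0.05. The adjusted p of these 5 genes lay between 0.00734 and 0.0113. Their changes thus spanned only -0.24 to -0.22, a range narrower than the SE of any of them.

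Of the accessory subunits of the matrix arm, Ndufa6, a small protein that anchors the acyl carrier protein, was the most abundant (chromosome 15, 82350140 to 82354322). It was at 665, 661, 689.5, 661 and 719.5 TPM in Control, 661, 628, 704, 673 and 688 TPM in Control + rFibcd1, 630.1, 619 and 569 TPM in LLC and 672, 656, 697 and 690.0 TPM in LLC + rFibcd1. LLC replicate 3 was the lowest mouse and LLC did not overlap with Control. The fall was 0.17 ± 0.045 (adjusted p = 0.0154). Ndufa9, which holds an NADPH near the junction of the arms, had the smallest p of the class (chromosome 6, 126821721 to 126849136). Its level was 313, 317, 331, 333 and 338 TPM in Control, 302, 314, 314, 322 and 331 TPM in Control + rFibcd1, 282, 282 and 255 TPM in LLC and 306, 278, 291 and 293 TPM in LLC + rFibcd1. Both tumor groups lay below all Control mice and overlapped with each other. The fall to LLC was 0.26 ± 0.044 (adjusted p = 0.00734).

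Ndufs4, a subunit whose loss causes Leigh syndrome, fell by 0.18 ± 0.038 (adjusted p = 0.00969), Ndufs6, which carries a zinc site, by 0.19 ± 0.047, and Ndufa5 by 0.19 ± 0.051. Ndufa2, a small subunit with a thioredoxin-like fold, fell by 0.17 ± 0.034, and Ndufa12, a late-added subunit, by 0.16 ± 0.043. The remaining accessory subunits of this arm did not pass the test: Ndufv3, bound at the flavin end, had a change of -0.092 ± 0.046 (adjusted p = 0.12), and Ndufa7 one of -0.063 ± 0.046 (adjusted p = 0.286).

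In the proximal membrane arm, Ndufa1, a single-helix subunit encoded on the X chromosome, was the most abundant (chromosome X, 37187588 to 37191163). It was at 667, 693, 662, 641 and 689 TPM in Control, 663, 624, 671, 653 and 695 TPM in Control + rFibcd1, 632, 612 and 595 TPM in LLC and 687, 635, 617 and 651 TPM in LLC + rFibcd1. LLC did not overlap with Control, although the gap of the nearest mice was small, and LLC + rFibcd1 overlapped with both. The fall was 0.13 ± 0.042 (adjusted p = 0.0302). Ndufa13, also known as GRIM-19, had the smallest p of the class (chromosome 8, 69894180 to 69902558), with 458, 452, 479, 468 and 479 TPM in Control, 439.8, 416, 471, 475 and 452 TPM in Control + rFibcd1, 404, 418 and 395 TPM in LLC and 486, 458, 455 and 471 TPM in LLC + rFibcd1. LLC + rFibcd1 lay within or above the Control range and apart from LLC. The fall to LLC was 0.20 ± 0.043 (adjusted p = 0.01).

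Ndufa3, Ndufa8, Ndufa10, Ndufa11 and Ndufc1, which line the membrane domain beside the matrix arm, fell by 0.14 to 0.18, with adjusted p from 0.0138 to 0.0239. Ndufs5 (-0.16 ± 0.062, adjusted p = 0.0585) and Ndufc2 (-0.11 ± 0.043, adjusted p = 0.0646) did not pass.

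The distal membrane arm held the most abundant gene of the family, Ndufb9, another small protein that anchors the acyl carrier protein (chromosome 15, 58933756 to 58939488). It was at 1246, 1254, 1295, 1238 and 1323 TPM in Control, 1235, 1176, 1304, 1312 and 1291 TPM in Control + rFibcd1, 1153, 1177 and 1067 TPM in LLC and 1274, 1227, 1234 and 1243 TPM in LLC + rFibcd1. The LLC mice lay below all others except that Control + rFibcd1 replicate 2 reached down to their range. The fall to LLC was 0.17 ± 0.042 (adjusted p = 0.0129). Ndufb2 fell most within this arm (chromosome 6, 39592574 to 39603382), from 46.6, 44.9, 46.2, 43.7 and 48.5 TPM in Control to 37, 39.5 and 35.3 TPM in LLC, with 42, 41.5, 44.4, 46.2 and 45 TPM in Control + rFibcd1 and 43.6, 41.1, 42.2 and 43.8 TPM in LLC + rFibcd1. LLC lay below every mouse of the other groups. The fall was 0.30 ± 0.047 (adjusted p = 0.00734).

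Ndufb4, Ndufb8 and Ndufb11 fell by 0.22 ± 0.053, 0.21 ± 0.047 and 0.19 ± 0.041. Ndufb3, Ndufb5, Ndufb7 and Ndufb10 fell by 0.10 to 0.18, with adjusted p from 0.0173 to 0.0461. Ndufb6 did not pass (-0.13 ± 0.051, adjusted p = 0.0601). Ndufab1, the mitochondrial acyl carrier protein that also serves lipoic acid synthesis, was at 84.2, 77.5, 73.1, 69.8 and 84.9 TPM in Control, 76.9, 69.8, 86.8, 81.9 and 86.8 TPM in Control + rFibcd1, 74.8, 65 and 63.3 TPM in LLC and 76.3, 76.4, 80.2 and 84.6 TPM in LLC + rFibcd1 (chromosome 7, 122085403 to 122101886). LLC replicate 1 lay inside the Control range. The change of -0.20 ± 0.082 was as large as that of the subunits that passed but its spread was wider (adjusted p = 0.0696).

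**Figure D2:**
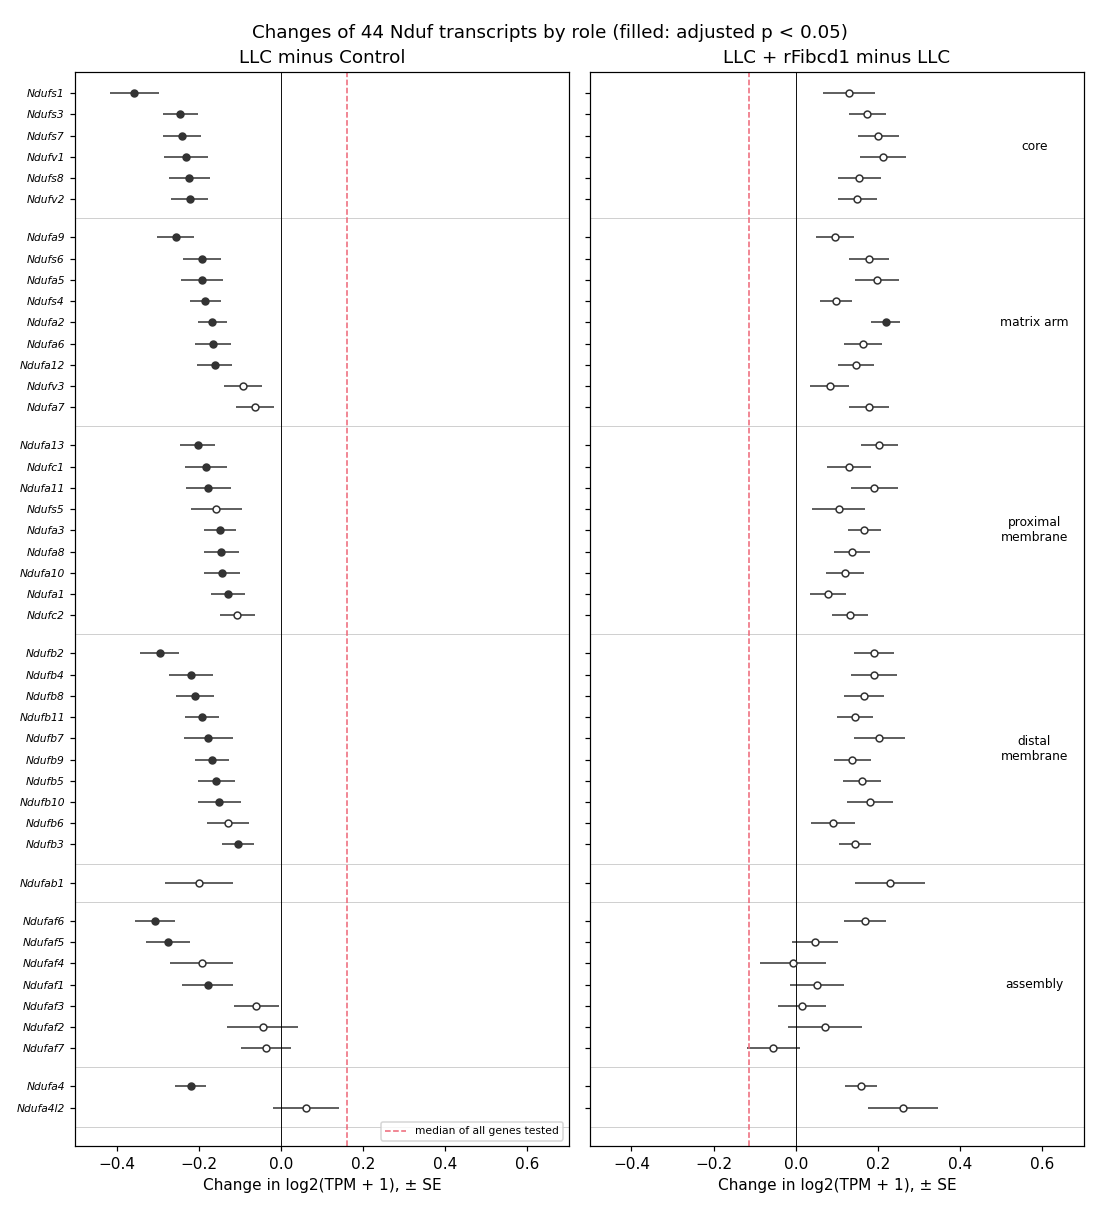
Change in log2(TPM + 1) with its SE (horizontal axis) for 44 of the 45 Nduf transcripts, grouped by role, for LLC minus Control and LLC + rFibcd1 minus LLC. Filled points passed an adjusted p of 0.05: 33 in the first panel, all below 0, and 1 in the second. The dashed line is the median of all genes tested. Both panels use the same LLC mice.

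Assembly factors changed by -0.31 to -0.037 (log2), and 3 of 7 passed the test. Ndufaf6, a factor needed early for the ubiquinone-binding module, had the smallest p of all 45 genes (chromosome 4, 11051045 to 11076205). It was at 20.6, 20.2, 19.3, 19.6 and 19.2 TPM in Control, 18.6, 18.5, 20.2, 20.5 and 20.0 TPM in Control + rFibcd1, 16.5, 14.8 and 16.1 TPM in LLC and 18.3, 16.9, 17.8 and 18.5 TPM in LLC + rFibcd1. All tumor-bearing mice lay below all Control mice. The fall to LLC was 0.31 ± 0.049 (adjusted p = 0.00734), or 19.2%. It was also the gene that passed whichever of the 17 mice was omitted.

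Ndufaf5, an enzyme that hydroxylates Ndufs7 during assembly, was at 27.4, 29.6, 28.9, 30.3 and 29.6 TPM in Control, 26.5, 27.8, 27.3, 29 and 29.7 TPM in Control + rFibcd1, 23.8, 24.2 and 23.8 TPM in LLC and 22.4, 26.3, 24.2 and 26.3 TPM in LLC + rFibcd1 (chromosome 2, 140170649 to 140203689). Both tumor groups lay below all Control mice and overlapped with each other, and the fall to LLC was 0.28 ± 0.053 (adjusted p = 0.00926). Ndufaf1, a partner of Ecsit and Acad9 in building the membrane arm, was at 60.6, 61.6, 69.8, 63.6 and 69 TPM in Control, 66, 62.8, 69.7, 65.6 and 68.6 TPM in Control + rFibcd1, 56.4, 62.2 and 53.2 TPM in LLC and 55.7, 59.7, 57.9 and 64 TPM in LLC + rFibcd1 (chromosome 2, 119655446 to 119662827). LLC replicate 2 lay above the lowest Control mouse, and the fall was 0.18 ± 0.062 (adjusted p = 0.0373).

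The 4 other assembly factors did not pass in the deposited scale, although 6 of 7 were called lower with median-ratio scaling and 7 of 7 with quantile normalization. Ndufaf4 changed by -0.19 ± 0.077 (adjusted p = 0.0615) and its partner Ndufaf3 by -0.06 ± 0.055 (adjusted p = 0.406). Ndufaf2, a late factor, had -0.045 ± 0.085 (adjusted p = 0.703), and Ndufaf7 had -0.037 ± 0.061 (adjusted p = 0.652).

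The pair outside complex I differed from each other. Ndufa4 was at 831, 846, 869, 833 and 879 TPM in Control, 794, 785, 848, 838 and 844 TPM in Control + rFibcd1, 742, 753 and 699 TPM in LLC and 845, 808, 789 and 823 TPM in LLC + rFibcd1 (chromosome 6, 11900292 to 11907497). LLC lay below every other mouse, with a fall of 0.22 ± 0.038 (adjusted p = 0.00734). Ndufa4l2 was at 16, 16.4, 18.5, 19.3 and 18.4 TPM in Control, 16.2, 15.7, 15.6, 18.5 and 18.4 TPM in Control + rFibcd1, 16.8, 20.6 and 18.2 TPM in LLC and 22.5, 24.1, 22 and 20.9 TPM in LLC + rFibcd1 (chromosome 10, 127514967 to 127517154). It was the only gene of the 45 with a positive change to LLC, 0.061 ± 0.081 (adjusted p = 0.573), which overlapped with Control and turned negative under 3 of 4 other scalings and without LLC replicate 2.

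Other genes of the pathway give the frame for these values. Of the 7 mitochondrially encoded subunits, 4 fell from Control to LLC (mt-Nd4, mt-Nd4l, mt-Nd5 and mt-Nd6) and 3 were not called, with a median change of -0.18. With median-ratio scaling 6 of the 7 were called (median -0.37), and with quantile normalization 1 was, with 3 changes positive (median -0.069). Of 9 complex I assembly factors with other names, 2 fell, Tmem70 by 0.21 ± 0.056 (limma adjusted p = 0.0143) and Ecsit by 0.14 ± 0.041 (adjusted p = 0.0204), and the median was -0.054. All 4 genes of complex II and all 9 of complex III fell (medians -0.23 and -0.24), as did 13 of 15 of complex V (median -0.24) and 7 of 13 of complex IV (median -0.17). Among 12 regulators of respiratory genes, 4 fell and 1 rose. Ppargc1a, the coactivator known for driving mitochondrial biogenesis, fell by 1.34 ± 0.40 (adjusted p = 0.0205), Esrra by 0.22 ± 0.061 (adjusted p = 0.0168), and Tfam and Tfb2m, which serve transcription of mitochondrial DNA, by 0.17 ± 0.053 and 0.16 ± 0.050, whereas Nrf1 rose by 0.23 ± 0.081 (adjusted p = 0.0365). Without LLC replicate 3, 0 of these regulators, mitochondrially encoded subunits, genes of complexes II, III and V and assembly factors with other names were called (limma), and 5, 3, 4, 9, 13 and 2 of them, in the same order, had an unadjusted p under 0.05. Of complex IV, 1 gene was called and 8 were at that level. Under the myofiber scaling the medians of complexes II, III, IV and V were 0.0076, -0.0015, 0.073 and 0.0026, that of the mitochondrially encoded subunits was 0.059, and 1 regulator was called lower and 3 higher.

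Markers of other cells moved in the same comparison. All 9 B cell, all 8 T cell and 5 of 8 macrophage markers rose from Control to LLC, with medians of 2.33, 1.62 and 1.08, and all 3 neutrophil markers that could be tested rose (median 3.01). T cell markers summed to 1.71 to 18.7 TPM in Control and 30.1 to 50.6 TPM in LLC, and macrophage markers to 327 to 680 TPM and 1036 to 1187 TPM. Endothelial markers rose in 2 of 6 (median 0.081), the brown adipocyte list had a median of 0.73 with 4 of 6 positive and 1 called, Ppargc1a, which was lower, and 0 of 6 fibroblast markers were called by limma (median 0.25). White adipocyte markers had a median of 1.53 with 0 of 6 called by limma, 2 with an unadjusted p under 0.05, and sums of 822 to 2982 TPM in Control and 1864 to 7697 TPM in LLC. Without LLC replicate 3, 0 genes of any of these lists were called by limma, while 9 B cell, 8 T cell, 5 macrophage, 3 neutrophil, 2 endothelial and 2 brown adipocyte markers had an unadjusted p under 0.05. In some mice 1 B cell marker (Cr2), 3 neutrophil markers (Ly6g, Camp and Ngp) and the brown adipocyte marker Ucp1 were at 0. With a B cell score as covariate, the median of the 45 genes was -0.13, 23 were lower at an unadjusted p under 0.05 (4.49% of all genes tested) and none was called, while 7 genes of all tested were. Beyond that covariate and the myofiber scaling, the part of these cells in the lower complex I values was not tested.

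**Figure D3:**
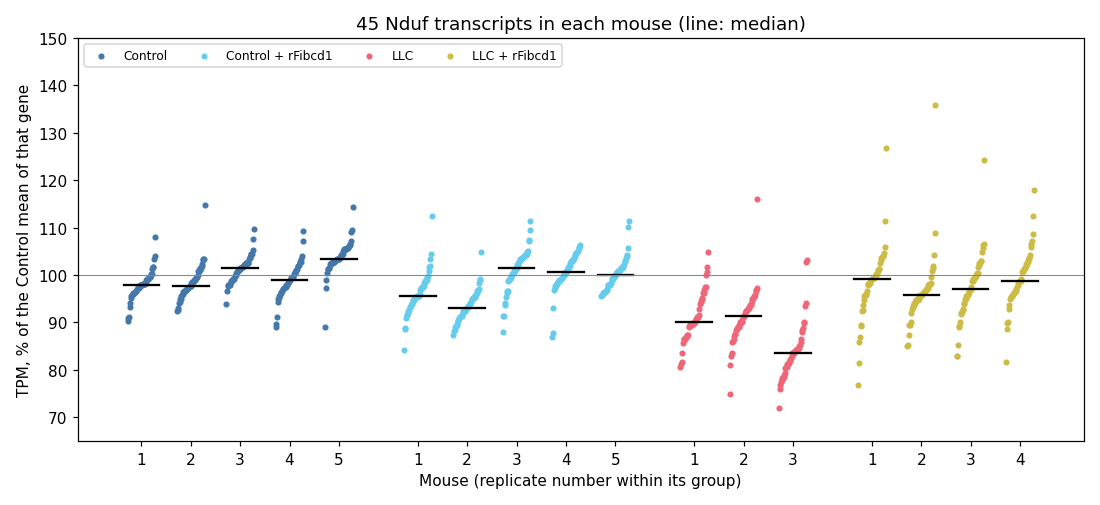
Each point is 1 of the 45 Nduf transcripts in 1 mouse, as TPM in percent of the Control mean of that gene (vertical axis), with mice by group and replicate number on the horizontal axis and a line at the median of the 45. LLC replicate 3 is lowest, with a median of 83.6%. The highest points in LLC + rFibcd1, up to 136%, are Ndufa4l2.

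The mice can also be compared by the level of the whole family. The median of the 45 genes, as a percent of each gene's Control mean, was 97.7% to 103.5% in the Control mice and 93.1% to 101.5% in Control + rFibcd1. In LLC it was 90.0%, 91.3% and 83.6%, below every other mouse. In LLC + rFibcd1 it was 99.2%, 95.8%, 97.0% and 98.6%, within the range of the tumor-free mice. The myofiber markers had medians of 84.2%, 86.1% and 81.8% in LLC and 92.8%, 81.4%, 82.8% and 94.6% in LLC + rFibcd1. LLC + rFibcd1 replicates 2 and 3 thus combined myofiber markers at the level of LLC with complex I transcripts near that of the tumor-free mice.

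The second comparison asked whether rFibcd1 changed these transcripts in tumor-bearing mice. From LLC to LLC + rFibcd1 the change was positive in 43 of 45 genes, with a median of 0.15 against -0.11 over all genes tested. Only Ndufa2 rose at an adjusted p under 0.05 (limma), where 0.113% of all genes tested were called. Dunn's test called no gene of the table in any comparison. At an unadjusted p under 0.05, 33 genes were higher, where 5.46% of all genes tested were. The 4 LLC + rFibcd1 mice lay above all 3 LLC mice in 32 genes, where 5.26% of all genes tested did so. These values share the LLC mice with the first comparison, so low values in the 3 LLC mice enter both. Without LLC replicate 3, no gene was called, 25 were higher at an unadjusted p under 0.05 (3.46% of all genes tested) and the median was 0.11. Under the myofiber scaling, the median was 0.076, 38 of 45 changes were positive and 4 were higher at an unadjusted p under 0.05 (1.73% of all). The other scalings gave larger medians, 0.28 with median-ratio scaling (45 of 45 positive, 39 higher at an unadjusted p under 0.05 where 11.9% of all genes were), 0.21 without mitochondrially encoded genes (36, where 8.4% were) and 0.19 with quantile normalization (35, where 15.8% were), and called none of the 45 (limma).

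Ndufa2, the gene that rose (chromosome 18, 36742332 to 36744557), was at 474, 485 and 449.6 TPM in LLC and 558, 536, 553 and 539.6 TPM in LLC + rFibcd1, with 536, 532, 522, 511 and 535 TPM in Control and 492, 481, 521, 515 and 508 TPM in Control + rFibcd1. The LLC + rFibcd1 mice lay above LLC without overlap and near or above the upper Control values. The rise was 0.22 ± 0.036 (adjusted p = 0.0335), or 16.4%. It passed in 11 of 17 fits that left out a mouse, with an adjusted p of up to 0.236, and did not pass under any other scaling or when only the 2 groups were fitted (adjusted p = 0.297).

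The next in order of p did not pass: Ndufa13 changed by 0.20 ± 0.045 (adjusted p = 0.0978), Ndufa3 by 0.17 ± 0.04 (adjusted p = 0.12) and Ndufs7 by 0.20 ± 0.049 (adjusted p = 0.124). Core subunits had a median of 0.17, accessory subunits of the matrix arm 0.16, of the proximal membrane arm 0.13 and of the distal membrane arm 0.16. Assembly factors had a median of 0.047, and the 2 negative changes of the family were among them, Ndufaf4 at -0.0068 ± 0.08 and Ndufaf7 at -0.055 ± 0.064. With median-ratio scaling and quantile normalization all 7 were positive, with medians of 0.17 and 0.14, and with the myofiber scaling 6 of 7 were negative (median -0.029). Ndufaf6 was the assembly factor with the largest change, 0.17 ± 0.051 (adjusted p = 0.165), followed by Ndufaf2 at 0.071 ± 0.089. The difference between classes was not tested. Complexes II, III, IV and V had medians of 0.14, 0.15, 0.17 and 0.16, the mitochondrially encoded complex I subunits 0.074 and the myofiber markers 0.081, with 0 genes of these lists called (limma). At an unadjusted p under 0.05, 3 of 4, 8 of 9, 10 of 13 and 14 of 15 genes of complexes II to V passed, 0 of 7 mitochondrially encoded subunits and 5 of 23 myofiber markers. B cell markers had a median of -1.72 and T cell markers of -1.21, with 3 of 9 and 6 of 8 at an unadjusted p under 0.05 and 0 called by limma. Macrophage markers were negative in 8 of 8 (median -0.62, 0 at an unadjusted p under 0.05), white adipocyte markers in 6 of 6 (median -0.94, 0) and fibroblast markers in 6 of 6 (median -0.39, 1), with 0 called by limma. Brown adipocyte markers were negative in 4 of 6 (median -0.37, 1). Endothelial markers were positive in 6 of 6 (median 0.17, 2) and neutrophil markers in 3 of 3 tested (median 0.38, 0), again with 0 called. The part of these cells in the difference was not tested beyond the myofiber scaling and the B cell covariate, and with that covariate the median of the 45 genes was 0.12.

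**Figure D4:**
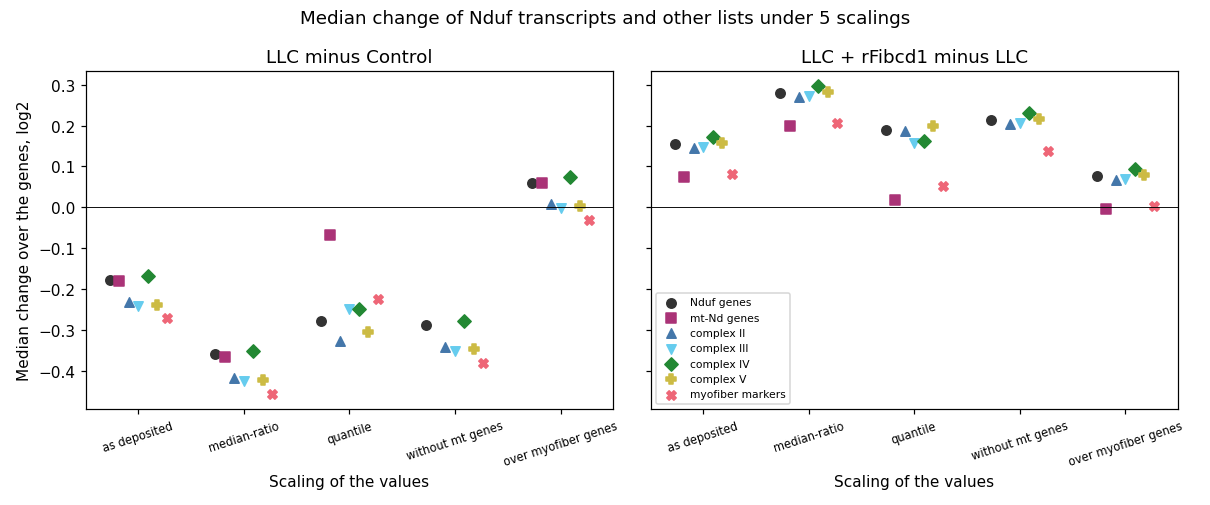
Median log2 change (vertical axis) of the Nduf transcripts and 6 other lists under 5 scalings of the values (horizontal axis), for LLC minus Control and LLC + rFibcd1 minus LLC. The Nduf median is below 0 under 4 scalings in LLC minus Control and 0.059 under scaling over myofiber genes. In the second panel it stays above 0 under all 5. The mitochondrially encoded genes have no value where they were removed.

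The third comparison asked what remained different from Control in tumor-bearing mice that received rFibcd1. The median change of the 45 genes was -0.030, with 31 negative and 14 positive, against 0.059 over all genes tested. It was larger under median-ratio scaling (-0.090, 43 negative), quantile normalization (-0.092, 42 negative) and rescaling without mitochondrially encoded genes (-0.082, 42 negative). Ndufaf5 (-0.23 ± 0.049, adjusted p = 0.0213), Ndufs1 (-0.23 ± 0.055, adjusted p = 0.0387) and Ndufa9 (-0.16 ± 0.041, adjusted p = 0.0443) were lower (limma), 3 of 45 where 1.01% of all genes tested were. Ndufa4l2 was higher by 0.32 ± 0.075 (adjusted p = 0.0302), or 25%, where 2.07% of all genes tested were higher. All 4 LLC + rFibcd1 mice exceeded all 10 tumor-free mice for Ndufa4l2, from 20.9 to 24.1 TPM against at most 19.3 TPM. In the same comparison 7 of 23 myofiber markers were lower (median -0.19), and 3 of 6 endothelial markers (median 0.33) and all 3 neutrophil markers tested (median 3.20) were higher. B cell, T cell and macrophage markers had medians of 0.74, 0.41 and 0.44, with 0 called by limma and 0 at an unadjusted p under 0.05. Apart from the myofiber scaling and the B cell covariate, the part of these cells was not tested.

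Groups did not overlap for 6 genes lower in LLC + rFibcd1 than in Control, namely Ndufa9, Ndufaf4, Ndufaf5, Ndufaf6, Ndufs1 and Ndufs4, where 2.92% of all genes tested did so. They did not overlap for 2 genes that were higher, Ndufa4l2 and Ndufa7, where 5.96% did so. Ndufa7 was at 153, 149, 145 and 147 TPM in LLC + rFibcd1 and 134, 132, 135, 139 and 145 TPM in Control, the nearest mice being at 145.01 and 144.99 TPM, and its change of 0.12 ± 0.042 did not pass (adjusted p = 0.15). The other positive changes that went against the median were at most 0.052 (Ndufa2) and none of them passed. Leaving out a mouse in turn, Ndufaf5 passed in 14, Ndufa4l2 in 10, Ndufs1 in 9 and Ndufa9 in 5 of 17 fits. Ndufa4l2 did not pass under median-ratio scaling, quantile normalization or rescaling without mitochondrially encoded genes (adjusted p from 0.103 to 0.179). Without LLC + rFibcd1 replicate 3 none of the 45 genes was called, and between 0 and 4 were over all fits that left out a mouse. The myofiber scaling gave 16 genes higher, none lower and a median of 0.13, with Ndufa9 at 0.00034, where 12.3% of all genes tested were higher and their median was 0.20.

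The fourth comparison concerned rFibcd1 in tumor-free mice. None of the 45 genes was called between Control + rFibcd1 and Control (limma), as were 0 of all 13305 genes tested (0%). A single gene, Ndufa2, had an unadjusted p under 0.05, where 4.07% of all genes tested were lower at that level. The 3 with the smallest p were Ndufa2 (-0.068 ± 0.03, adjusted p = 0.927), Ndufs1 (-0.10 ± 0.052, adjusted p = 0.927) and Ndufv1 (-0.081 ± 0.047, adjusted p = 0.927), all of which failed the test. The changes ran from -0.10 to 0.050, with a median of -0.030 against -0.060 over all genes tested, and no gene separated the groups. The direction of the family depended on the scale: 37 changes were negative as deposited, whereas under median-ratio scaling 42 of 45 were positive with a median of 0.046, and none was called under either. Ndufa2 was at 527 ± 10.5 TPM (SD, n = 5) in Control and 503 ± 16.7 TPM (SD, n = 5) in Control + rFibcd1, and the 95% interval of its change ran from -0.13 to -0.0044.

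An interaction term compared the change under rFibcd1 in tumor-bearing mice with that in tumor-free mice. None of the 45 genes passed, nor did any of the genes tested (0%; limma). The estimate was positive in 43 of 45 genes with a median of 0.18, against -0.058 over all genes tested, and 32 were higher at an unadjusted p under 0.05, where 5.98% of all genes tested were. Without LLC replicate 3, 20 were higher at that level (4.64% of all) and the median was 0.14. Ndufa2 came nearest, with 0.29 ± 0.047 (adjusted p = 0.0588), followed by Ndufa13 with 0.26 ± 0.058 (adjusted p = 0.133) and Ndufa4 with 0.21 ± 0.051 (adjusted p = 0.166). The 2 negative estimates were those of Ndufaf4 (-0.005 ± 0.10) and Ndufaf7 (-0.0093 ± 0.083). These estimates use all 4 groups and so share mice with each comparison above. Under median-ratio scaling 11 genes (4.84% of all genes tested), and under the myofiber scaling 8 genes (2.29%), were higher at an unadjusted p under 0.05. All 45 estimates were positive under median-ratio scaling (median 0.23) and quantile normalization (median 0.19). These medians lay 0.25 and 0.14 above those of all genes tested.

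Across the 45 genes, the change from Control to LLC had a Spearman correlation of -0.11 with the Control mean and -0.29 with exon length, and the change from LLC to LLC + rFibcd1 of 0.22 and -0.040. These are descriptions across genes measured in the same libraries.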

How the data were processed

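RNA from the diaphragm of 17 mice was sequenced and summarised by the authors, who trimmed and filtered 100-base paired reads, aligned them to GRCm38 (mm10) and used CLC Genomics Workbench to quantify genes. The deposited table holds TPM, which the authors computed per gene length and scaled to a sum of 1000000 per library, mitochondrial transcripts included, so a lower mitochondrial share raises all other values. The labels name a stranded library kit and another sequencer than the published methods, and strand use in counting is not given in the sources used here. Depth was estimated from the steps of low values (81.4% to 83.9% of which were whole reads within 0.02). Gene positions and exon lengths are from GENCODE vM21 on GRCm38, counted from 1. Groups and replicates were read from the labels, and 0 columns were without a sample.

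Genes that reached 1 TPM in 3 or more mice (13305) were tested on log2(TPM + 1) with limma 3.58.1 in R 4.3.3, with the 4 groups in 1 model, a mean-dependent prior, two-sided tests and Benjamini-Hochberg adjustment over all genes tested (threshold 0.05). The test was checked on simulated data with independent genes, few of them changed. That check does not cover small changes shared by many genes, such as those described here. The authors' Kruskal-Wallis and Dunn tests were kept as an alternative, because groups of 3 to 5 are small for their approximation. Other alternatives were a pseudocount of 0.1 TPM, no filter, 4 other scalings, only the groups compared, a replicate block, a B cell score as covariate, no trend and leaving out each mouse. Values per mouse are given, for each role class, for the gene with the highest Control mean and that with the smallest p in LLC against Control, for Ndufab1, Ndufa4 and Ndufa4l2, and for 3 genes named for a call or a lack of overlap in another contrast (Ndufa2, Ndufaf5 and Ndufa7). Changes are given for called genes, up to 30 by p in LLC against Control and 10 in other contrasts, else for the 3 with the smallest p, and for genes against the median. A gene that this rule names is not reported here. Further genes were named so that every other member is accounted for. The members, lists and motifs were chosen with earlier results of these data known.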

Additional observations from a re-analysis of the deposited data

Results flagged for a closer look

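Within groups of 4 or 5 mice, 5 of 135 combinations of gene and group had a mouse far from the others, by a gap test that chance alone meets in about 1 in 20 groups. In LLC + rFibcd1, replicate 1 was high for Ndufb8 (233.2 TPM, group median 227.2 TPM) and replicate 3 was low for Ndufv2 (331.1 TPM, group median 344.7 TPM). In Control, replicate 5 was high for Ndufa5 (424.0 TPM, group median 398.8 TPM) and low for Ndufaf7 (14.7 TPM, group median 16.9 TPM). In Control + rFibcd1, replicate 1 was low for Ndufv1 (383.8 TPM, group median 412.1 TPM). The group of 3 LLC mice, where replicate 3 had the lowest value of all mice in 37 of 45 genes, is too small for this test.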

How the results depend on the processing

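The count of genes lower in LLC than in Control was 34 as reported, 29 to 44 under 7 alternatives (the cause of its moves was not tested), and moved beyond 1.5 times under 5. It was 0 after scaling over myofiber genes, where the 3 genes called were all higher, 0 with the B cell score as covariate, 0 by Dunn's test, which called no gene of the table, and 1 to 36 when a mouse was left out, the 1 being without LLC replicate 3. The replicate block, in a paired fit, called 0 of the 45 and 5 of all genes tested. For deviations from the group means, r over 22 same-numbered pairs ran from -0.46 to 0.48, and 4 exceeded 0.1. Mice with different numbers were not compared, so whether the numbers pair the mice was not tested. In LLC + rFibcd1 against LLC the count of 1 became 0 with a pseudocount of 0.1 TPM, under each other scaling, with only the groups compared, the replicate block, the B cell score, no trend or Dunn's test, and was 0 to 1 when a mouse was left out. In LLC + rFibcd1 against Control the count of 4 became 2 without a filter, 0 with median-ratio scaling, 2 without mitochondrial genes, 16 (all higher) over myofiber genes, 1 with only the groups compared, 1 with the replicate block, 2 with the B cell score, 2 without trend, 0 by Dunn's test and 0 to 4 when a mouse was left out. In Control + rFibcd1 against Control no alternative called any of the 45, and in the interaction 0 to 1 were called when a mouse was left out (1 without LLC replicate 2).

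The median change from Control to LLC was -0.36 after median-ratio scaling, -0.28 after quantile normalization, -0.29 without mitochondrial genes and 0.059 over myofiber genes. The median of all genes tested, 0.16 in the deposited scale, was 0.0055 after median-ratio scaling, -0.10 after quantile normalization, 0.075 without mitochondrial genes, 0.36 over myofiber genes. Over myofiber genes 38 of 45 changes from Control to LLC were positive, and those that turned positive among the genes followed under each setting were (log2): Ndufa6 0.075, Ndufa1 0.11, Ndufa13 0.038, Ndufb9 0.073, Ndufaf1 0.059, Ndufab1 0.039, Ndufa4 0.021, Ndufs4 0.056, Ndufv2 0.018, Ndufa2 0.074, Ndufb11 0.049, Ndufs8 0.018, Ndufb8 0.031, Ndufv1 0.0096, Ndufb4 0.022, Ndufs6 0.049, Ndufa3 0.092, Ndufa12 0.079, Ndufa5 0.049, Ndufb5 0.083, Ndufc1 0.058, Ndufa8 0.10, Ndufa10 0.10, Ndufa11 0.063. Ndufa9 in LLC + rFibcd1 against Control turned to 0.00034 there. Ndufa4l2 in LLC against Control turned to -0.11 with median-ratio scaling, -0.15 with quantile normalization, -0.044 without mitochondrial genes and ranged from -0.013 (without LLC replicate 2) to 0.12 when a mouse was left out, and Ndufa2 in Control + rFibcd1 against Control to 0.0072 with median-ratio scaling. The causes were not tested. Precision is limited by groups of 3 to 5 mice and by a depth known only as an estimate.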
